A study of Mus musculus with 16 samples.

Results

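At 1870 regions away from gene ends, peaks of trimethylated histone H3 lysine 4 (H3K4me3) were called in both arid4b-delta lineages and neither WT lineage. The regions were found by merging the 4 H3K4me3 peak lists, keeping merged regions more than 2500 bp from any protein-coding gene end (build mm10), and then those that overlapped a peak in both arid4b-delta lists and in neither WT list. They were 1870 of 9321 distal merged regions (20.1%), out of 27025 merged H3K4me3 regions in all. The opposite rule, a peak in both WT lists and in neither arid4b-delta list, found 31 distal regions (0.333%), of which 26 lay within 37570 bp of each other on chromosome 9. Of all merged regions, near gene ends or not, 11.9% were in both arid4b-delta lists and neither WT list. The regions were chosen by the presence of H3K4me3 peaks in these lists, so their H3K4me3 values and these counts are a description.

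The study profiled mouse embryonic stem cells of the CJ9 line that carried the arid4b∆ genotype (arid4b-delta here) or were WT. Cells of each genotype were taken through 5 days of directed differentiation toward endoderm or toward mesoderm and fixed for 8 min with formaldehyde. ChIP-seq was done for H3K4me3, H3K27ac and H3K27me3, with 1 library per mark, lineage and genotype, which gives 12 peak lists. The labels do not give the deleted part of Arid4b, the number of clones or the antibodies, and the 4 input libraries were not analysed here. With 1 library per group no difference between genotypes could be tested. Exact Clopper-Pearson 95% intervals are given for shares and cover counting error only, and sequencing depth is unknown because peak lists hold no read totals. In bulk chromatin, fewer cells with a mark and less of the mark per cell cannot be told apart.

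The protein made from Arid4b is part of the Sin3-HDAC corepressor, which removes acetyl groups from histones. H3K4me3 is best known at the start sites of active and poised genes, where CXXC-domain proteins bring the methyltransferases to unmethylated CpG islands, and it is weak or short at most enhancers. H3K27ac marks active promoters and enhancers, and H3K27me3 is laid down by Polycomb repressive complex 2. Regions that carry H3K4me3 together with H3K27me3 are called bivalent and are typical of developmental genes in embryonic stem cells.

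As facts of the whole series, the H3K4me3 lists held 25272 peaks in arid4b-delta endoderm against 22292 in WT endoderm, and 26852 in arid4b-delta mesoderm against 21752 in WT mesoderm. The H3K27ac lists held 35884 peaks in arid4b-delta against 14216 in WT in endoderm, and 22747 in arid4b-delta against 12496 in WT in mesoderm. The H3K27me3 lists held 16660 in arid4b-delta against 10326 in WT in endoderm, and 9863 in arid4b-delta against 6150 in WT in mesoderm. The arid4b-delta list was thus the longer one in all 6 pairs, and the part of list length in the counts was not tested beyond the alternatives given beside them. Arid4b itself had H3K4me3 and H3K27ac within 1000 bp of a gene end in every list, which does not check the deletion. Of the endoderm markers Sox17, Foxa2, Gata4 and Gata6, 0 had H3K27ac near a gene end in any list. Of the mesoderm markers T, Mesp1, Kdr and Hand1, 0 had it in arid4b-delta mesoderm and 1, T, in WT mesoderm.

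The sequences below are of RefSeq start-site windows under the regions, and of RefSeq microRNAs under or within 2500 bp of them (build GRCm38.p6). They were chosen after the values were seen, for the bivalent, acetylated and unmarked regions described further on. Of the 1870 regions, 9 (0.481%, interval 0.220 to 0.912) lay within 2500 bp of a microRNA hairpin, against 67 of the 9321 distal regions (0.719%, 0.557 to 0.912). The neural microRNA miR-9, made from several genes, was represented by 2 loci, Mir9-3 at chr7:79505264-79505353 (plus strand) and Mir9-2 at chr13:83738814-83738885 (plus strand). Mir137, another neural microRNA (chr3:118433857-118433929, plus strand), was covered by a region, and the brain-enriched Mir128-2 (chr9:112118636-112118711, minus strand) and Mir135b (chr1:132198088-132198184, plus strand) had one 189 and 1576 bp away. The other 4 regions lay at Mir682, which was overlapped, and within reach of Mir6942 (193 bp), Mir6769b (2216 bp) and Mir1960 (2262 bp), whose sequences are not shown. Some mature forms at the 5 loci follow, 5′ to 3′, with the seed (bases 2 to 8) in capitals, and no seed is shared between those shown. Other mature forms at these loci are not shown.
miR-9-5p: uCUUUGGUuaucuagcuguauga
miR-9-3p: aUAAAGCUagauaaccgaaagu
miR-137-3p: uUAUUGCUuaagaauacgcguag
miR-137-5p: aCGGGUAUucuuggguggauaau
miR-128-3p: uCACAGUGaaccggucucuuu
miR-135b-3p: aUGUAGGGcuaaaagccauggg

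Annotated start sites were a minority among the regions. A RefSeq promoter window, 250 bases before to 50 bases after a start, was overlapped by 124 regions (6.63%, interval 5.55 to 7.86), against 919 of the 2272 distal regions with H3K4me3 in all 4 lists (40.4%, 38.4 to 42.5), 2.44% of those in arid4b-delta endoderm alone and 3.54% of those in arid4b-delta mesoderm alone. By the gene-end rule these could only be starts away from a coding gene's outer ends, or starts of long noncoding RNAs (lncRNAs). The CG dinucleotide, which reads CG on both strands, was counted in each window. The 69 protein-coding windows had a median of 13 CG, the same as all 21262 such windows, against 22 in windows at distal regions in all 4 lists. The 69 lncRNA windows had a median of 11, against 19 at distal regions in all 4 lists and 4 in all 11588. At least 10 CG stood in 66.7% of these coding windows against 56.7% of all, and in 63.8% of these lncRNA windows against 19.1% of all. The 4 windows below lay wholly inside a region, and capitals mark each CG. They are those of Mir9-3hg, the host transcript of the miR-9 gene on chromosome 7 (chr7:79515185-79515484, plus strand, 28 CG), an internal start of the cell-cycle inhibitor gene Cdkn2a (chr4:89282143-89282442, minus strand, 12 CG), a start of Apbb2, which encodes an adaptor that binds amyloid precursor protein (chr5:66337616-66337915, minus strand, 13 CG), and a predicted lncRNA inside the Wnt-pathway repressor gene Tcf7l1 (chr6:72677292-72677591, plus strand, 7 CG).
Mir9-3hg: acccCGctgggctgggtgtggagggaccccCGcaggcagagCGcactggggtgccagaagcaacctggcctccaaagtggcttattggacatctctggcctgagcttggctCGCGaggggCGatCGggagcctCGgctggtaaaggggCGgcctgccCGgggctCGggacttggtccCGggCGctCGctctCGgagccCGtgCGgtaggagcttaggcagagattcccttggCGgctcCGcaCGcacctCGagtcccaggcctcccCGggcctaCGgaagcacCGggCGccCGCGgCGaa
Cdkn2a: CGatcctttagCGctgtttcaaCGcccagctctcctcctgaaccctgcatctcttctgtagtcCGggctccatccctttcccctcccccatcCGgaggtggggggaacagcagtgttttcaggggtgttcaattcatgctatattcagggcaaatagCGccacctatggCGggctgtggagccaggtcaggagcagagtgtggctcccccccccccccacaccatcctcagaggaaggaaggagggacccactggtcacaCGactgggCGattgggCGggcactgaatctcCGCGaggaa
Apbb2: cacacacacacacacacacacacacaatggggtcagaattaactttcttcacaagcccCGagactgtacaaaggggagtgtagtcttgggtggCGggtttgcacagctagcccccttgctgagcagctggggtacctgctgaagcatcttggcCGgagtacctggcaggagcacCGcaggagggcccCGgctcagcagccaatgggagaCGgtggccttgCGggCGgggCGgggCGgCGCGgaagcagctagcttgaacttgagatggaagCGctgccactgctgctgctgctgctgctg
lncRNA in Tcf7l1: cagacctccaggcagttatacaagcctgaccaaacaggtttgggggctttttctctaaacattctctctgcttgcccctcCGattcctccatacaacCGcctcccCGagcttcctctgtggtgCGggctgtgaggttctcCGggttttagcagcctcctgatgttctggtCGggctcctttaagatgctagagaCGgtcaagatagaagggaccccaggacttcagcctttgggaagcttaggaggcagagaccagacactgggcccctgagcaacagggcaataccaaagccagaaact

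The H3K4me3 peaks of the regions were short and low in both arid4b-delta lists. In endoderm the regions held 1988 peaks with a median width of 232 bp and a median fold enrichment of 5.11, against 682.5 bp and 11.4 over the whole list. In mesoderm they held 1979 peaks, with 280 bp and 5.24 against 695 bp and 10.9. Fold enrichment is the authors' value for a peak within its own list. Where folds of several libraries are given for a region, each describes the peak in that library, and they were not compared, since the lists were called separately. Ranked by it from 0 to 100 within each list, the regions' peaks had a median percentile of 17.3 in endoderm and 22.5 in mesoderm. Peaks in the upper 50% of their list numbered 8 in endoderm (0.402%) and 32 in mesoderm (1.62%), and 1833 regions (98.0%) were under the 50th percentile in both.

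**Figure D1:**
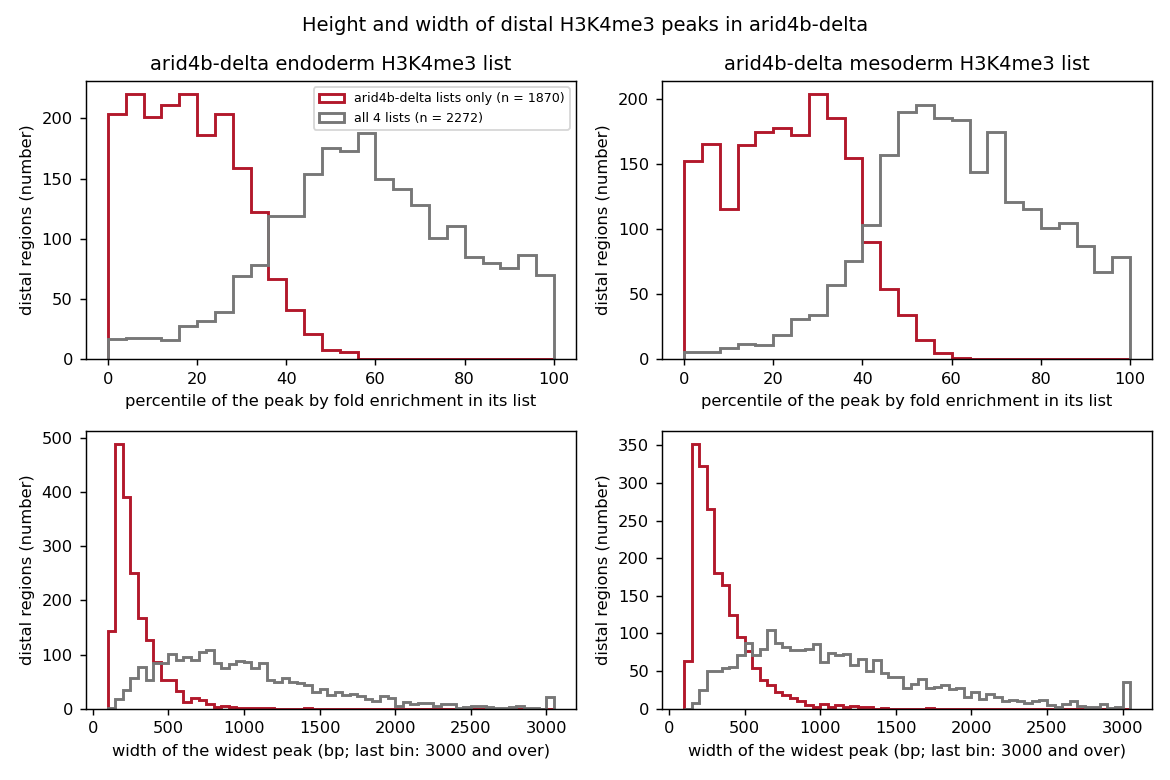
Percentile by fold enrichment (upper panels, 0 lowest and 100 highest in its list) and width in bp (lower panels) of the highest or widest arid4b-delta H3K4me3 peak of each distal region, as numbers of regions per bin, for regions in the arid4b-delta lists only (red, n = 1870) and in all 4 lists (grey, n = 2272). The red lines sit low and narrow, with medians over regions at percentiles of 17.9 in arid4b-delta endoderm and 23.3 in arid4b-delta mesoderm, against 57.6 and 60.9 for regions in all 4 lists.

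Taking the highest and the widest peak of each region, the 1870 had a median percentile of 17.9 and a width of 234 bp in arid4b-delta endoderm, against 57.6 and 886.5 bp for distal regions in all 4 lists and 11.9 and 179 bp for those in arid4b-delta endoderm alone. In arid4b-delta mesoderm the 1870 had 23.3 and 286.5 bp, against 60.9 and 992.5 bp for those in all 4 lists and 15.2 and 200 bp for those in arid4b-delta mesoderm alone. The 1870 thus stood between both kinds in rank and width. The merged regions in arid4b-delta only spanned a median of 365 bp (150 to 2621), with 633 under 300 bp and 47 over 1000 bp. In 191 of them (10.2%) an arid4b-delta list had more than 1 peak. When only the upper 50% of each arid4b-delta list was set against the full WT lists, 3 regions were left, against 519 for the opposite rule. With lists matched in length there were 823 against 56.

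A WT H3K4me3 peak was often near. It lay within 1000 bp of 321 regions (17.2%) and within 2500 bp of 412 (22.0%), the nearest being 11 bp away, and the median distance was 31048 bp. Without the 412, 1458 regions remained.

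The highest ranked region was the one over the Mir9-3hg start shown above (chr7:79514890-79515926), 46979 bp from the nearest coding gene, Polg, which encodes the mitochondrial DNA polymerase. Its H3K4me3 fold enrichment was 11.5 in arid4b-delta endoderm and 13.1 in arid4b-delta mesoderm, with no peak in WT. A second region at the locus lay 557 bp from the Mir9-3 hairpin (chr7:79505911-79506296, fold 4.81 and 5.53). Among the 10 highest was also a region 3873 bp from an end of the chondroitin polymerizing factor gene Chpf2 (10.3 and 13.7). Another lay 6003 bp from Foxi3, a forkhead factor gene of ectodermal placodes (12.2 and 11.3). Others lay inside the neuronal splicing factor gene Nova2 (9.62 and 14.5) and the teneurin gene Tenm4 (10.95 and 12.2). For named regions, inside or internal means overlap with a coding gene body, which was not checked to be that of the gene named.

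The 10 regions with the widest peaks were ranked by the narrower of their arid4b-delta endoderm and mesoderm peaks. They included the region with the longest span, 2621 bp on chromosome X, 72069 bp from H2ab1, a gene for a histone H2A variant of the testis (chrX:117087173-117089793, narrower peak 1075 bp). One with a narrower peak of 959 bp lay 6233 bp from Dnmt3b, the de novo DNA methyltransferase gene of the epiblast, with fold 11.1 in arid4b-delta endoderm and 10.5 in arid4b-delta mesoderm (chr2:153641844-153643178). Others lay inside Utrn, the utrophin gene (1279 bp), Ryr1, a calcium release channel gene (1030 bp), and Cdkn2a (874 bp, over the start shown above). By span alone the regions near Zfp281 (1424 bp) and inside Mecom (1411 bp), described further on, were also among the 10 longest.

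The regions lay 2502 to 2061130 bp from a coding gene end, with a median of 24897 bp, against 12548 bp for distal regions in all 4 lists, 29622 bp for those in arid4b-delta endoderm alone and 30342 bp for those in arid4b-delta mesoderm alone. A gene body held 738 of them (39.5%, interval 37.2 to 41.7), against 61.7% (59.7 to 63.7) of those in all 4 lists, 38.3% of those in arid4b-delta endoderm alone and 39.1% of those in arid4b-delta mesoderm alone. More than 100000 bp from any gene end lay 445 (23.8%), against 6.91%, 26.9% and 28.1% of the same classes. The nearest to the limit on the inside were next to Emx1 and Nrn1 (2502 bp each), Tle2 and Col9a2 (2506 bp each) and Sall2 (2507 bp), and named ones just outside it were next to Wnt10a (2497 bp), Tbkbp1 (2493 bp), Ccdc115 (2461 bp) and Fuom (2447 bp). Emx1 and Nrn1 inside the limit and Wnt10a and Tbkbp1 outside it had H3K27me3 in 3 or 4 lists, and the pairs Col9a2 and Sall2, and Ccdc115 and Fuom, had it in 0, with Tle2 having it in 1.

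H3K27ac, which took no part in choosing the regions, lay at many of them in arid4b-delta and at few in WT. In endoderm 892 regions (47.7%, interval 45.4 to 49.99) overlapped an arid4b-delta H3K27ac peak, against 268 (14.3%, 12.8 to 16.002) a WT peak. In mesoderm it was 814 (43.5%, 41.3 to 45.8) against 167 (8.93%, 7.68 to 10.3). All 9321 distal H3K4me3 regions stood a little below the 1870 in arid4b-delta and above them in WT, with 43.5% in arid4b-delta endoderm against 19.8% in WT endoderm, and 40.7% in arid4b-delta mesoderm against 17.5% in WT mesoderm. Distal regions with H3K4me3 in all 4 lists were acetylated in 39.3% in arid4b-delta endoderm against 37.1% in WT endoderm, and in 45.8% in arid4b-delta mesoderm against 40.1% in WT mesoderm. The contrast was not particular to the 1870. Of 1026 distal regions with H3K4me3 in arid4b-delta endoderm alone, 511 were acetylated in arid4b-delta endoderm against 130 in WT endoderm. In mesoderm it was 401 against 70. Of 2854 in arid4b-delta mesoderm alone, it was 1362 against 278 in endoderm and 1113 against 175 in mesoderm. In arid4b-delta only, H3K27ac lay at 670 regions in endoderm (35.8%), against 27.4% of all distal H3K4me3 regions, and at 669 in mesoderm (35.8%), against 25.7%. In WT only it lay at 46 regions in endoderm (2.46%, against 3.7% of all distal regions) and at 22 in mesoderm (1.18%, against 2.52%).

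**Figure D2:**
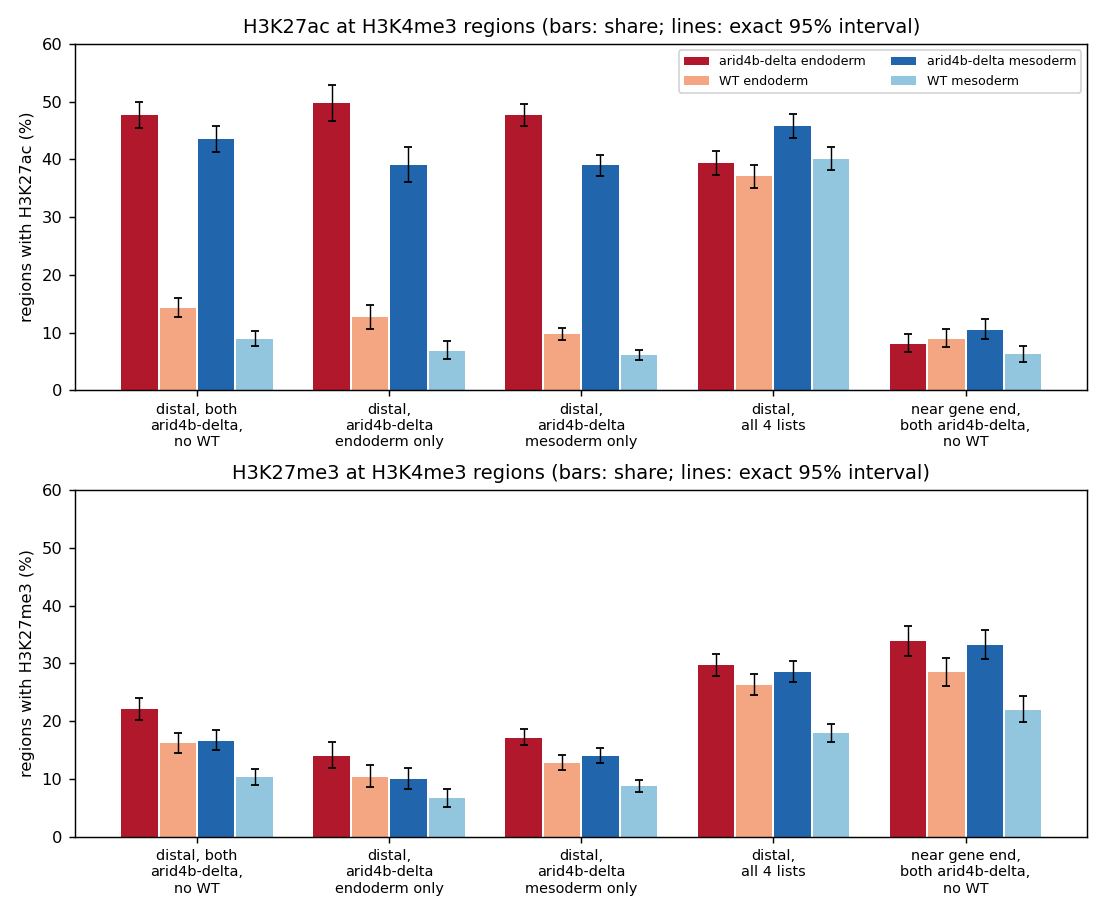
Share of H3K4me3 regions (%) with a peak of H3K27ac (upper panel) or H3K27me3 (lower panel) in each of the 4 libraries, by the lists that held H3K4me3, with bars for the share and lines for the exact 95% interval. Among distal regions of both arid4b-delta lists H3K27ac stood at 47.7% and 43.5% in arid4b-delta against 14.3% and 8.93% in WT, while regions near gene ends with the same H3K4me3 pattern stood at 6.24% to 10.5%.

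Both arid4b-delta H3K27ac lists and neither WT list held 503 of the regions (26.9%, interval 24.9 to 29.0), against 17.4% of all distal H3K4me3 regions and 11.7% of 32753 distal H3K27ac regions. The opposite pattern was found at 5 (0.267%, 0.0869 to 0.623), against 0.483% and 0.406%. Distal regions with H3K4me3 in arid4b-delta endoderm alone had the same H3K27ac pattern in 24.6% (22.0 to 27.3), and those in arid4b-delta mesoderm alone in 26.1% (24.5 to 27.8), so the intervals overlapped that of the 1870. Regions in all 4 H3K4me3 lists had it in 2.42% (1.83 to 3.14), and regions near gene ends in both arid4b-delta lists and neither WT list in 1.41% (0.852 to 2.20). Of 3838 distal H3K27ac regions with the pattern, 485 (12.6%, 11.6 to 13.7) overlapped one of the 1870. With H3K27ac lists matched in length the counts were 216 in arid4b-delta only against 13 in WT only, and the arid4b-delta shares were 39.6% in endoderm and 24.3% in mesoderm.

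The acetylated regions fell into a few kinds. All 4 H3K27ac lists held 111 regions (5.94%), both arid4b-delta lists and WT endoderm 98 (5.24%), arid4b-delta endoderm alone 149 (7.97%), arid4b-delta mesoderm alone 50 (2.67%), and no list 859 (45.9%). The shares of these kinds over all distal regions are not given here. H3K27ac in any list lay at 1011 of the 1870 (54.1%, interval 51.8 to 56.3). That was close to the 3943 of 7451 other distal regions (52.9%, 51.8 to 54.1). The H3K4me3 and H3K27ac summits of a region were a median of 111 bp apart in arid4b-delta endoderm and 87 bp apart in arid4b-delta mesoderm. The H3K27ac peaks at the 503 regions had a median percentile of 81.2 in the arid4b-delta endoderm list, against 78.8 for those at all distal H3K4me3 regions. In the arid4b-delta mesoderm list it was 42.4, against 55.3. At the 111 regions it was 92.7 and 89.9 in arid4b-delta endoderm and mesoderm, and 81.0 and 51.5 in WT, where all distal regions had 59.1 and 53.3.

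The 503 regions lay far from genes. Their median distance to a gene end was 92095 bp, against 23436 bp for the 111 and 12554 bp for the 859 without H3K27ac, and 243 of them (48.3%, interval 43.9 to 52.8) lay beyond 100000 bp, against 83 of the 859 (9.66%, 7.77 to 11.8). Gene bodies held 112 (22.3%), against 427 (49.7%). RefSeq promoter windows were overlapped by 2 (0.398%), against 87 (10.1%). Chromosome X held 62 of the 503 (12.3%, 9.58 to 15.5), against 53 of the other 1367 regions (3.88%, 2.92 to 5.04) and 466 of all 9321 distal H3K4me3 regions. Distances and chromosomes of all 3838 distal H3K27ac regions in both arid4b-delta lists and neither WT list are not given here. Across chromosomes the regions made up 17.2% (chromosome 11) to 24.7% (chromosome X) of all distal H3K4me3 regions.

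**Figure D3:**
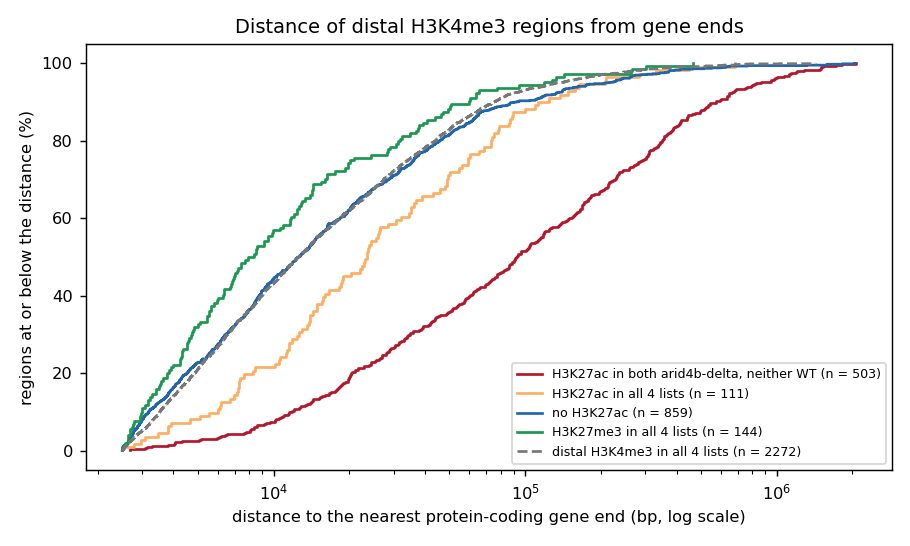
Cumulative share of distal H3K4me3 regions (%) by distance to the nearest protein-coding gene end (bp, log scale), for the arid4b-delta regions split by the lists with H3K27ac or H3K27me3 (solid lines) and for regions with H3K4me3 in all 4 lists (dashed). The line for H3K27ac in both arid4b-delta lists only lies to the right of the others, with a median of 92095 bp against 8149.5 to 23436 bp.

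Examples in both arid4b-delta H3K27ac lists and neither WT list follow. Inside Slc4a4, a sodium bicarbonate cotransporter gene (chr5:89207078-89207502), the H3K27ac fold was 43.7 in arid4b-delta endoderm and 19.2 in arid4b-delta mesoderm, with no WT peak of H3K27ac or H3K4me3. Inside Mecom, a zinc-finger factor gene of blood stem cells (chr3:30030117-30031527), it was 7.37 and 4.55. At 61058 bp from an end of the retrotransposon-derived gene Rtl5 on chromosome X it was 9.64 and 10.7. Near the odorant receptor gene Olfr1339 it was 5.59 and 12.7, and inside the diacylglycerol kinase gene Dgkb 13.0 and 8.09. These were among the 20 highest of the 503 by H3K4me3, at mean percentiles of 33.0 to 41.7 over both arid4b-delta lists.

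Regions acetylated in every list included the region near Foxi3 (H3K27ac fold 14.3 and 12.3 in the arid4b-delta endoderm and mesoderm lists, and 9.54 and 4.02 in the WT lists). The same held inside Tcf7l1, over the start shown above (14.0 and 19.7, and in WT 13.6 and 4.40), inside Sptb, the erythroid spectrin gene (27.8 and 30.6, and in WT 14.2 and 10.1), and inside Msi1, a gene for an RNA-binding protein of neural progenitors (7.67 and 19.4, and in WT 19.8 and 16.6). The 5 regions acetylated in both WT lists and in neither arid4b-delta list were nearest to Tmem176b, Foxk1, Lrrc74b, Shroom3 and Ceacam15, with WT folds of 4.91 to 8.08.

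H3K27me3 lay at fewer of the regions than H3K27ac in both arid4b-delta lineages, and 239 regions carried it in endoderm of both genotypes. It overlapped 412 (22.0%, interval 20.2 to 24.0) in arid4b-delta endoderm against 302 (16.1%, 14.5 to 17.9) in WT endoderm, and 311 (16.6%, 15.0 to 18.4) in arid4b-delta mesoderm against 192 (10.3%, 8.93 to 11.7) in WT mesoderm. Over all distal H3K4me3 regions the shares were 22.4% in arid4b-delta endoderm against 18.3% in WT endoderm, and 19.6% in arid4b-delta mesoderm against 13.2% in WT mesoderm, so the 1870 were at or below them in each library. Any list held 530 (28.3%), against 28.0% of all distal regions and 35.0% of distal regions with H3K4me3 in all 4 lists. In arid4b-delta only it lay at 173 regions in endoderm (9.25%, against 6.67% of all distal H3K4me3 regions) and at 146 in mesoderm (7.81%, against 8.18%). In WT only it lay at 63 (3.37%, against 2.62%) and 27 (1.44%, against 1.75%). Both arid4b-delta lists and neither WT list held 34 (1.82%), close to the 1.91% of all distal H3K4me3 regions and below the 4.07% of 18426 distal H3K27me3 regions. The opposite held for 4 (0.214%, against 0.172% and 0.521%). With H3K27me3 lists matched in length these counts turned to 15 against 20, and the endoderm shares to 15.5% in arid4b-delta against 16.1% in WT.

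The largest H3K27me3 class was the 144 regions (7.70%) with the mark in all 4 lists. H3K4me3 peaks were called there in arid4b-delta only, and H3K27me3 peaks in both genotypes. The share of all distal regions with H3K27me3 in all 4 lists is not given here. In any list the mark lay at 28.3% of the 1870 and 28.0% of the other distal regions. The 144 lay near genes, at a median of 8149.5 bp. Of them 84 (58.3%, interval 49.8 to 66.5) were inside one, against 39.5% of the 1870, and 140 had H3K27ac in no list. Besides the Mir9-3hg region (H3K27me3 fold 2.31 and 2.98 in the arid4b-delta endoderm and mesoderm lists, and 2.22 and 2.34 in the WT lists) they included the one over Mir137 (1.57 and 4.28, and in WT 1.96 and 1.53). Others were 3755 bp from Sox14, a neural transcription factor gene (2.66 and 3.80, and in WT 2.08 and 2.12), and inside Tbx2, a T-box repressor gene (2.11 and 2.79, and in WT 2.03 and 1.89), Cyp26b1, which encodes a retinoic acid degrading enzyme (2.63 and 2.26, and in WT 2.86 and 3.01), and Cdkn2a (2.66 and 2.71, and in WT 1.92 and 1.91). The region 514 bp from Mir9-2 had H3K27me3 in arid4b-delta mesoderm (1.79) and in both WT lists (2.74 and 2.85), and in arid4b-delta endoderm it had none.

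H3K27me3 and H3K27ac rarely met in mesoderm. In arid4b-delta mesoderm H3K27me3 lay at 28 of the 814 acetylated regions (3.44%, interval 2.30 to 4.93) against 283 of the 1056 others (26.8%, 24.1 to 29.6). In arid4b-delta endoderm it lay at 141 of the 892 acetylated regions (15.8%, 13.5 to 18.4) against 271 of the 978 others (27.7%, 24.9 to 30.6). Of these overlaps 97 in endoderm and 24 in mesoderm were among the 503. Neither mark was found in any list at 547 regions, and this count over all distal regions is not given here either. The arid4b-delta endoderm lists were the longest for both marks, and their part in the endoderm overlap was not tested.

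**Figure D4:**
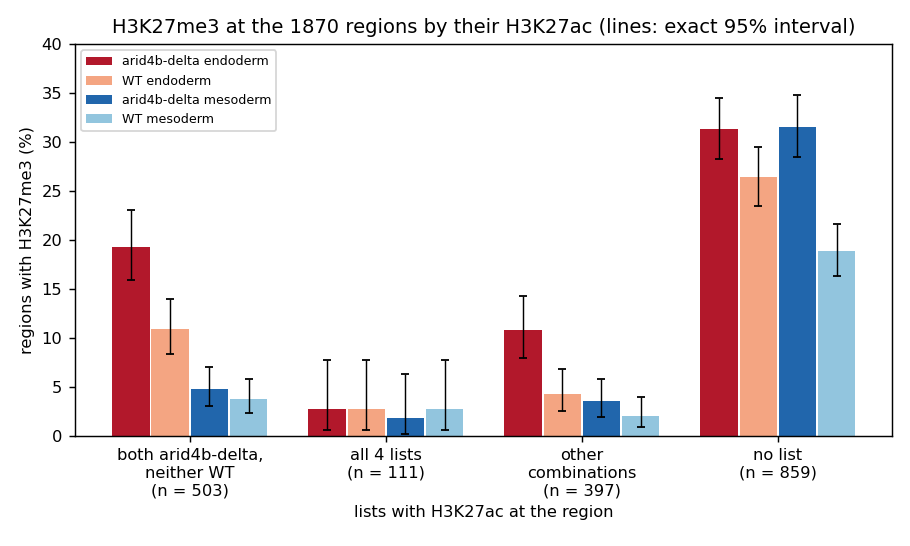
Share of the 1870 regions (%) with H3K27me3 in each library, by the lists in which the region had H3K27ac, with bars for the share and lines for the exact 95% interval. Regions without H3K27ac stood highest, at 31.3% and 31.5% in arid4b-delta endoderm and mesoderm against 26.4% and 18.9% in WT, and the 503 acetylated in both arid4b-delta lists only stood at 19.3% and 4.77% against 10.9% and 3.78%.

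Regions with H3K27me3 in both arid4b-delta lists and neither WT list included one 10593 bp from an end of Ubp1, a transcription factor gene (2.43 in arid4b-delta endoderm and 5.34 in arid4b-delta mesoderm). Others lay 8867 bp from Cbx5, the gene of heterochromatin protein HP1-alpha (2.40 and 2.12), and 6247 bp from Tfap2a, a neural crest factor gene (3.28 and 1.97). One lay 90075 bp from Rarb, a retinoic acid receptor gene (1.64 and 1.48), and one inside Bcor, a Polycomb-associated corepressor gene (1.73 and 1.56). The 4 with the opposite pattern were nearest to Septin9, Tigd2, Gabra3 and Sntn, with WT folds of 1.49 to 5.01.

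The nearest coding genes of the regions numbered 1475 of 21883 (6.74%). For any distal H3K4me3 region they numbered 4675 (21.4%). The lists below were set with earlier results of these data known, distance to a gene does not show that the gene is a target, and genes with much empty sequence around them are the nearest gene more often. Of the 280 listed genes, 49 (17.5%) were the nearest of a region, and 135 (48.2%) of any distal region. The primed epiblast list stood highest, with 8 of 11 genes (72.7%), and 9 of 11 (81.8%) for any distal region. Neuroectoderm had 9 of 22 (40.9%, against 81.8% for any distal region), general pluripotency 4 of 18 (22.2%, against 9 of 18), naive pluripotency 3 of 14 (21.4%, against 7 of 14), signalling 7 of 34 (20.6%, against 67.6%) and mesoderm 6 of 34 (17.6%, against 67.6%). Primitive streak and mesendoderm had 3 of 23 (against 30.4% for any distal region) and endoderm 3 of 24 (against 37.5%). The lists of H3K4 methylation enzymes (2 of 18, against 44.4%), Polycomb components (2 of 24, against 37.5%), germline (1 of 16, against 4 of 16), housekeeping (1 of 20, against 4 of 20) and Sin3-HDAC genes (1 of 23, against 26.1%) were at 11.1% or lower.

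**Figure D5:**
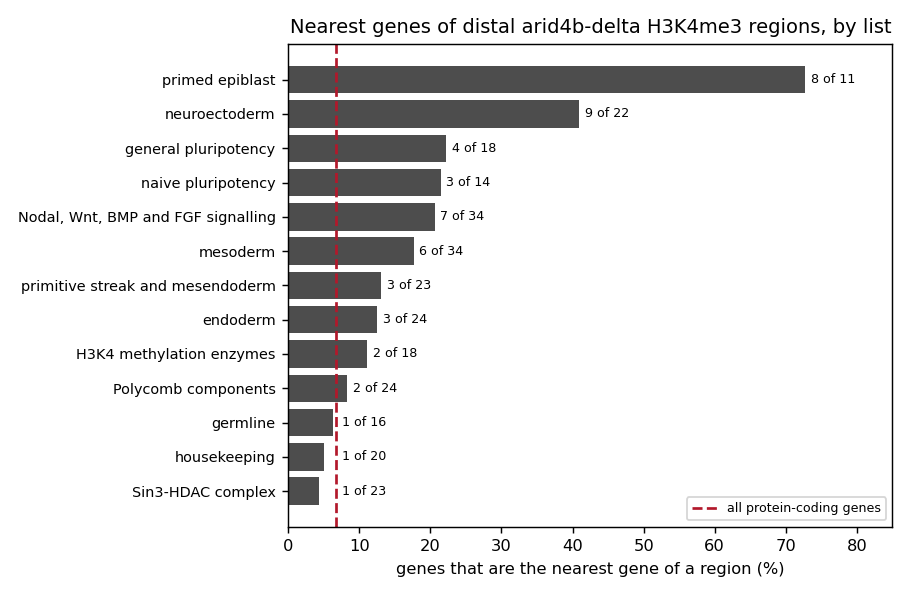
Share of each gene list (%) whose genes are the nearest protein-coding gene of at least 1 of the 1870 regions, with the number of genes beside each bar and the share of all protein-coding genes (6.74%) as a dashed line. Primed epiblast genes stand highest at 72.7%, and Sin3-HDAC genes lowest at 4.35%.

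The primed epiblast genes are those that switch on as stem cells leave the naive state, and 11 regions had one of them nearest. Of the 11, 6 had H3K27ac in some list and 2 had H3K27me3, against 17 and 3 of the 20 other distal regions nearest to genes of the list. Over all 1870 regions the shares were 54.1% for H3K27ac and 28.3% for H3K27me3. The growth factor gene Fgf5 had a region 15749 bp away (chr5:98292782-98293204) with H3K27ac folds of 10.8 and 10.4 in arid4b-delta endoderm and mesoderm, 7.37 in WT endoderm and no peak in WT mesoderm. The POU factor gene Pou3f1 showed the same pattern 11106 bp away (7.0 and 16.2, then 8.03 and none), as did 2 of the 3 regions near Dnmt3b (11.4 and 14.1, then 7.95 and none, at the wider). All 4 thus had an H3K27ac peak in WT endoderm and no called H3K4me3 peak in WT. The 2 near Dnmt3b lie side by side (chr2:153641844-153643178 and chr2:153643284-153644303) and are not separate cases. Otx2, a head and epiblast homeobox gene, had a region inside the gene without either mark (H3K4me3 fold 8.02 and 10.5) and another 41778 bp away with H3K27ac in arid4b-delta mesoderm only (8.07). The regions inside Dnmt3a and Sall2 had neither mark, and that near Foxd3 had H3K27me3 in all 4 lists. The region with Cdh2 nearest lay 1017883 bp away from it, with H3K27ac (6.80) and H3K27me3 (6.50) in arid4b-delta endoderm only.

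Smaller shares of the pluripotency lists had a region. All 7 regions of the general list had H3K27ac in some list and 0 had H3K27me3, against 16 and 3 of the 25 other distal regions nearest to its genes, but 1 of the 7 lay 478114 bp from Sox2 and 2 lay 531355 and 702394 bp from Myc. The region 65650 bp from Zfp281, a zinc-finger gene of stem cells, was acetylated in every list (10.002 and 8.57 in arid4b-delta endoderm and mesoderm, and 7.44 and 5.64 in WT). The 3 around Tet1, which encodes a 5-methylcytosine oxidase, each had H3K27ac in at least 1 list of each genotype. In the naive list, a region 13770 bp from Klf2 was acetylated in every list (15.5 and 8.19, and in WT 8.56 and 13.0), while 3 of 4 near the nuclear receptor gene Nr5a2 were inside it under H3K27me3 (2.88 and 3.11, and 2.37 in WT endoderm). In WT mesoderm the H3K27me3 fold at these was 2.03, with no peak at chr1:136953566-136953955.

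Regions nearest to neural and mesodermal genes mostly had H3K27me3, as had the other distal H3K4me3 regions nearest to genes of these lists. The genes and values of this paragraph were chosen after their values were seen, except Mef2c and Nkx2-2, which are among the genes with the most regions. Of 16 regions nearest to neuroectoderm genes 13 had H3K27me3 (81.3%), at 7 of 9 genes, against 53 of the 64 other distal regions of the list (82.8%) and 28.3% of the 1870. Of the 13, 9 had it in all 4 lists, and 3 of the 16 had H3K27ac. The regions are not independent, since several share a locus. Nkx2-2, a homeobox gene of the ventral neural tube and pancreas, had 6 regions between chr2:147185672 and chr2:147190922, all inside the gene as annotated and all with the same H3K27me3 folds of 2.71 and 3.33 in arid4b-delta endoderm and mesoderm and 3.29 in WT endoderm. In WT mesoderm their H3K27me3 folds were 1.72 to 2.07, with no peak at chr2:147186175-147186463. Neurog1 and Neurog2, proneural genes, and Six3 and En2, brain patterning genes, had 5 more regions, with H3K27me3 in 3 or 4 lists. Nes, the neural filament gene nestin, had an internal region with H3K27ac instead (5.23 and 7.74 in arid4b-delta endoderm and mesoderm, then 7.56 in WT endoderm and none in WT mesoderm).

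Mef2c, a MADS-box factor gene of heart and neurons, had the most regions, 7, of which 6 lay 59870 to 70556 bp away, at chr13:83726949-83738299 next to Mir9-2, and had H3K27me3 in at least 1 list. The seventh lay 809377 bp away with H3K27ac in arid4b-delta only (5.51 and 6.35). Over the whole mesoderm list 13 of 15 regions had H3K27me3 (86.7%), at 5 of 6 genes, against 56 of the 71 other distal regions of the list (78.9%). The 13 included the 6 near Mef2c, 4 near or in the kidney factor gene Pax2 and 1 near Twist1, and 2 of the 15 had H3K27ac. Bcor and Lrfn5, a synaptic adhesion gene, had 6 regions each, and 5 each were nearest to Foxp4, a forkhead gene, to Irf2bpl and to a gene with a clone symbol only. At Lrfn5 all 6 were acetylated in arid4b-delta endoderm, and they lay 318874 to 1189989 bp away. Within 5000 bp of another of the 1870 lay 332 (17.8%).

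Of the 10 regions nearest to signalling genes 8 had H3K27ac, at 6 of 7 genes, against 15 of the 38 other distal regions of the list and 54.1% of the 1870. The 8 included 2 that lay 1144140 and 1684675 bp from their nearest gene, Acvr2a, with H3K27ac in arid4b-delta only. H3K27me3 lay at 2 of the 10, against 14 of the 38 and 28.3%. The FGF receptor gene Fgfr1 had 2 internal regions acetylated in every list (16.3 and 13.4 in arid4b-delta endoderm and mesoderm, and 10.9 and 6.99 in WT, at the one with the higher fold). A region 23865 bp from Spry2, a feedback inhibitor of FGF signalling, was likewise acetylated in every list (14.0 and 15.9, and in WT 17.6 and 8.72). In the streak list, Eomes had a region 3471 bp away with H3K27ac in WT endoderm only (6.31), and Wnt3 an internal one with H3K27me3 (6.62 and 2.72 in arid4b-delta endoderm and mesoderm, 4.12 in WT endoderm and none in WT mesoderm). Sox17 had a region 62203 bp away with H3K27ac in arid4b-delta only (12.4 and 5.46) and H3K27me3 in arid4b-delta endoderm only (2.64). The Fgfr1 and Spry2 regions were chosen after their values were seen.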

How the data were processed

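ChIP-seq peak lists of 3 histone marks in 2 lineages and 2 genotypes were used, 12 lists with 1 library per group, and depth is not known from them. Bowtie2, Picard, MACS2 and build mm10 are named in the submitters' processing notes, and versions and settings are not given in the sources used here. The deposited lists are narrow peaks for H3K4me3 and H3K27ac and broad peaks for H3K27me3, called in each library. Column 5 is the authors' score per peak and was not used. Column 7 is the authors' fold enrichment, a ratio, used to rank peaks within a list. Columns 8 and 9 are the deposited -log10 p and -log10 q values, of which q only ordered peaks of equal fold when lists were shortened. Column 10 of the narrow lists, another unit set by the authors, is the summit in bp from the peak start.

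Peaks on chromosomes 1 to 19, X and Y were merged where they overlapped by at least 1 bp, as was used for all overlaps. Distances were taken to both ends of 21883 protein-coding genes in a RefSeq table (GRCm38.p6, which is mm10). The table has no exons, so whether a region lies in an exon or intron is not known. Promoter windows (300 bp) and microRNAs came from RefSeq tables of the same build, and the promoter table used here holds none on chromosome 18. Python 3.11.15 with numpy 2.4.6, pandas 2.3.3, scipy 1.17.1 and matplotlib 3.10.9 was used, and the interval code was tested on simulated data. The gene named for a region is the protein-coding gene with the nearest end. A region counted as inside a gene overlapped the body of any protein-coding gene, which can differ from the gene named.

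Regions were named by rule: the 10 highest and the 10 widest by their narrower arid4b-delta peak, up to 20 or 10 per H3K27ac and H3K27me3 class by rank, up to 30 nearest to listed genes, up to 10 at noncoding gene ends, 5 on each side of the 2500 bp limit, and the 5 genes with the most regions. Predicted symbols (145 regions) were counted and, apart from the lncRNA in Tcf7l1, not named. Genes not covered by the rule were picked once values were known, which includes Apbb2 and all microRNAs. The regions, the gene lists (13, with 280 genes) and the comparisons were chosen with earlier results of these data known. Alternatives were lists matched in length within a lineage, the upper 50% of a list, and other distance, width and merging limits. Others were overlap of at least 50% of the shorter of region and peak, and marks within 1000 bp. Restriction to regions without a promoter window and, for the marks, to regions without a WT H3K4me3 peak within 2500 bp were added after the data were seen.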

Additional observations from a re-analysis of the deposited data

How the results depend on the processing

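Of 106 alternatives to 19 results, 56 left the value within its limit, and 50 did not. The limit was the interval for a share and 1.5 times either way for a count. For a median width or percentile it was the standard deviation of the peaks' values. The cause was not tested. The number of regions in arid4b-delta, against the opposite rule in WT, was 823 against 56 with H3K4me3 lists matched in length, 275 against 4 in the upper 50% of each list, 3 against 519 with the upper 50% of arid4b-delta against full WT lists (the direction turned), 632 against 3 with peaks of at least 500 bp, 4082 against 220 in endoderm alone and 5323 against 201 in mesoderm alone. The 31 WT regions were 1 with peaks up to 1000 bp apart merged and 15 without an arid4b-delta peak within 2500 bp. For H3K27ac in arid4b-delta endoderm and mesoderm the shares were 39.6% and 24.3% with lists matched in length (216 regions in arid4b-delta only against 13 in WT only). In the upper 50% of each list they were 42.6% and 21.7% in arid4b-delta against 8.82% and 3.85% in WT (236 against 2), and for peaks within 1000 bp 52.9% and 50.4% against 19.4% and 14.1%. Without a WT H3K4me3 peak within 2500 bp the arid4b-delta shares were 53.7% and 47.9%. With overlap of at least 50% of the shorter of region and peak, the arid4b-delta mesoderm share was 41.0%. For H3K27me3 the arid4b-delta shares were 15.5% and 12.5% with lists matched in length, with 15 regions in arid4b-delta only against 20 in WT only (the direction turned). In the upper 50% they were 13.1% and 9.89% in arid4b-delta against 9.47% and 5.45% in WT, and within 1000 bp 28.2% and 19.9% against 19.7% and 13.3%, with 7 regions in WT only under both settings. The arid4b-delta endoderm share was 19.9% with overlap of at least 50% of the shorter of region and peak. Without a WT H3K4me3 peak within 2500 bp the mesoderm shares were 13.9% in arid4b-delta against 7.96% in WT, and the WT endoderm share was 13.9%. Beyond 5000 bp from gene ends 35.6% of regions lay inside a gene. No paired analysis was possible because each group has 1 library, and for the same reason no replicate could be left out. Depth is unknown, so a missing peak cannot be read as an absent mark.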

Other observations

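The 31 distal regions with H3K4me3 in both WT lists and in neither arid4b-delta list were not spread over the genome. With gaps of up to 10000 bp they formed 4 loci, of which chr9:3000745-3038314 held 26 regions in 37570 bp and chr14:19415700-19419688 held 3. The other 2 regions lay at chr4:42671118-42671344 and chr8:123591892-123592167. The 31 are thus not separate cases, and no interval is given for shares of them. Their peaks were at a median percentile by fold of 0.406 in the WT endoderm list and 0.234 in the WT mesoderm list. H3K27ac lay at 30 of them in each arid4b-delta list and at 29 in each WT list. H3K27me3 lay at 3 in arid4b-delta endoderm against 5 in WT endoderm, and at 5 in arid4b-delta mesoderm against 30 in WT mesoderm, where 3 H3K27me3 peaks covered the 30. With peaks up to 1000 bp apart merged, 1 region was left by the same rule.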
